A study of Mus musculus with 70 samples.

Results

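A set of 10 genes that mark hepatic stellate cells or their conversion to myofibroblasts were followed through total liver and sorted liver macrophages: Lrat, Colec11, Reln, Des, Acta2, Pdgfrb, Rgs5, Tgfb1, Tgfbr1 and Tgfbr2. They were chosen by symbol, and all 10 were among the 23732 symbols that the 3 deposited count tables share. The mice were fed a control diet or a NASH diet (a diet that causes nonalcoholic steatohepatitis) for 24 weeks, and their age is not in the labels. The WT group was labelled Lyz2.Cre+/+, and the KI group was labelled OpnKI Mye, a myeloid knock-in of osteopontin going by the name (Opn, gene Spp1). Lyz2.Cre is a Cre recombinase inserted in the Lyz2 gene and active in myeloid cells, so neither group was free of an engineered allele by these labels. RNA came from whole liver lysate (4 libraries for each sex, genotype and diet) or from sorted F4/80high CD11blow resident macrophages of the liver (4 libraries for each control-diet group, 5 for each male NASH group and 6 for each female NASH group). Stellate cells were not sorted, so the 10 genes were read in total liver and in the macrophage libraries. The cells from which these reads came were not tested.

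Stellate cells lie between hepatocytes and the sinusoidal endothelium and store vitamin A as retinyl esters, which the enzyme encoded by Lrat makes. On injury they can become contractile, collagen-producing myofibroblasts: platelet-derived growth factor acts on them through the receptor Pdgfrb, and transforming growth factor beta (Tgfb1), which macrophages also release, acts through Tgfbr2 and Tgfbr1. Des encodes desmin, the intermediate filament long used to stain rodent stellate cells, and Acta2 encodes alpha smooth muscle actin, the usual myofibroblast stain, which vascular smooth muscle also makes.

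The promoters of 4 of the 5 genes that were lower in male KI liver on the NASH diet are shown, because these genes moved together there. The sequences come from RefSeq (GRCm38.p6), 250 bases up to the start, 5′ to 3′ on the gene's strand. Acta2 lies at chr19:34255374-34255623 (minus strand), Des at chr1:75360042-75360291 (plus), Lrat at chr3:82903975-82904224 (minus) and Tgfb1 at chr7:25686752-25687001 (plus). Capitals mark CArG-like matches, the CArG box being the site of serum response factor in muscle actin genes.
Acta2: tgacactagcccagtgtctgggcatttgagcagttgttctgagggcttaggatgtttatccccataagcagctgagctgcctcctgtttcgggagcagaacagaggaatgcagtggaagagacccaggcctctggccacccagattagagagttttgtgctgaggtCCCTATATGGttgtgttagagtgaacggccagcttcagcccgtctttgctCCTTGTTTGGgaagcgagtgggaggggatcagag
Des: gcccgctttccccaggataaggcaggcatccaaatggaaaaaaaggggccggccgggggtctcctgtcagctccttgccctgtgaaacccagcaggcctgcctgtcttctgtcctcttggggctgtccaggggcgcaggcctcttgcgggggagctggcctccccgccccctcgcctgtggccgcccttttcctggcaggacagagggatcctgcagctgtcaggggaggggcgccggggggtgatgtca
Lrat: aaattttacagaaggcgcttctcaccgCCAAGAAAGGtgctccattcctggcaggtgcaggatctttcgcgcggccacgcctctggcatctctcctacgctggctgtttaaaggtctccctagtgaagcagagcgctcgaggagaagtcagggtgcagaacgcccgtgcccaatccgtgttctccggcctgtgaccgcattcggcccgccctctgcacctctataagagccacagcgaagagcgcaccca
Tgfb1: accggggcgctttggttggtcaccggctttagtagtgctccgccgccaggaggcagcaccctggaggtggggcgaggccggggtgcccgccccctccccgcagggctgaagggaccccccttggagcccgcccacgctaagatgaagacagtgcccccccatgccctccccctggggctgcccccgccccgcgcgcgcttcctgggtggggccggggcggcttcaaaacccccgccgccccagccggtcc
The 4 motifs were searched on both strands in the 250 bases before each start of the 9 of 10 genes with an entry. The CArG box proper (CC, then 6 bases that are A or T, then GG) was in none of the 9, and in 1.62% of 27025 genes. A CArG-like form, added after the sequences were seen, lets 1 of the middle 6 bases be free and was in 9.78% of all genes. It occurred in Acta2 at -84 and -34 from the start (CCCTATATGG and CCTTGTTTGG), in Lrat at -223 (CCAAGAAAGG) and in Tgfbr2 at -73 (CCTTGATTGG). The SMAD element CAGAC was in Acta2, Colec11, Tgfbr2 and 1 of the 2 starts of Tgfbr1, and in 45.8% of all genes; TATAAA was in none of the 9, and in 14.3% of all genes.

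The libraries held 11245097 to 29966174 counts. Male liver WT control replicates 3 and 4 differed by less than the sampling noise (mean chi-square per gene 0.0671, against 2.05 to 11.9 for the other within-group pairs) and were counted as 1 sample, so that group has n = 3. The sex genes of 2 libraries went against their labels: that merged male liver WT control replicate 3, and male macrophage WT control replicate 4. Nothing in the labels says that replicates are separate animals, so p-values measure the spread between these samples. Spp1 checked the genotype labels in macrophages on the control diet. Its mean there was 9.32 ± 2.13 (SD, n = 4) CPM (read counts scaled to a common library size) in male KI and 0.379 ± 0.118 in male WT. In females it was 1.94 ± 0.439 against 0.101 ± 0.0816. On the NASH diet KI and WT overlapped, at 42.2 to 201 against 5.73 to 52.7 CPM in males and 2.20 to 95.7 against 1.20 to 11.8 in females. Spp1 thus did not check the label of each NASH library. The sorted libraries carried Adgre1 (F4/80) at 1349 to 3416 CPM, against 11.3 to 44.2 in liver, and the endothelial Stab2 at 335 to 1000 CPM. Lyz2 split the 38 macrophage libraries into 10 at 43.3 to 166 CPM and 28 at 1473 to 3782. Of the 10, the males are KI control replicate 3 and WT control replicate 4. The females are replicates 3 and 4 of KI NASH, 1, 2 and 3 of KI control, and 1, 3 and 4 of WT control. Results that rest on them are given without them as well.

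Levels below are CPM on library sizes scaled by the trimmed mean of M-values (TMM) in edgeR. Overlap of libraries between groups is a description of single genes, and its share over all genes was not computed. Per kilobase of exon, which allows genes to be compared, Colec11 was the highest of the 10 in every liver group, with group means from 20.2 to 34.8 CPM per kb. Colec11 encodes collectin-11, a secreted lectin that starts the lectin pathway of complement. In male WT control liver Lrat followed at 5.20 ± 0.89 (SD, n = 3), Tgfbr1 at 5.06 ± 0.50, Reln at 4.03 ± 0.94 and Tgfbr2 at 4.00 ± 2.84 CPM per kb, values that differ by less than the SD of Tgfbr2. Reln encodes reelin, a large secreted glycoprotein. Acta2 stood at 3.39 ± 1.32, Tgfb1 at 2.59 ± 0.44, Pdgfrb at 2.32 ± 0.64, Rgs5 at 2.21 ± 0.49 and Des at 1.99 ± 0.36 CPM per kb, and these neighbours do not differ beyond their spread.

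**Figure D1:**
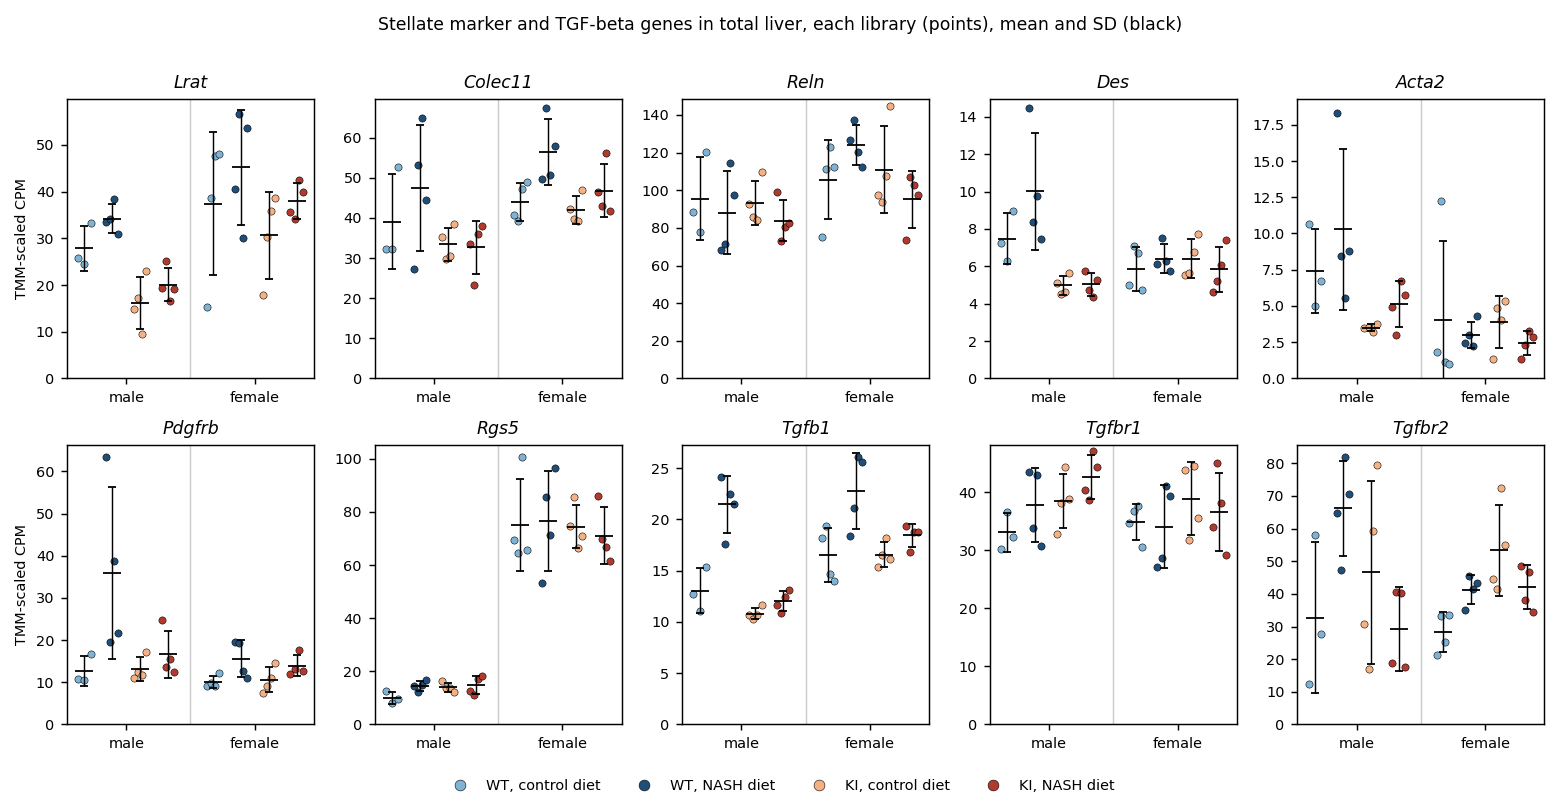
TMM-scaled CPM of the 10 genes in total liver, 1 panel per gene with its own linear axis from 0; points are libraries, black bars the group mean and SD (cut at 0 where it would pass below). In males the 4 WT NASH libraries lie above all KI NASH libraries for Lrat, Des, Tgfb1 and Tgfbr2, and Rgs5 is higher in every female than in every male library.

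In male WT liver the NASH diet was accompanied by higher Pdgfrb and Tgfb1. Pdgfrb, the receptor for platelet-derived growth factor, stood at 10.8, 10.6 and 16.8 CPM on the control diet and at 63.5, 19.4, 38.7 and 21.8 CPM on the NASH diet. The groups did not overlap, and NASH replicate 1 was the highest. The log2 fold change was 1.51 ± 0.38 (SE, adjusted p = 0.0149, edgeR quasi-likelihood test with Benjamini-Hochberg adjustment over 12988 genes), and the call was lost without WT control replicate 1 (1.40, adjusted p = 0.0628) or replicate 2 (1.38, adjusted p = 0.0733). Tgfb1 rose from 12.7, 11.03 and 15.4 CPM to 24.2, 17.6, 22.5 and 21.5, again without overlap (log2 fold change 0.73 ± 0.13, adjusted p = 0.00323). DESeq2 called 3 of the 10, and 3267 of all genes, the third being Rgs5, a regulator of G protein signalling found in pericytes. Rgs5 was at 12.5, 8.12 and 9.47 CPM on the control diet and 14.4, 12.3, 14.8 and 16.6 on the NASH diet, with overlap (edgeR log2 fold change 0.55 ± 0.19, adjusted p = 0.0532). It passed with DESeq2 (0.54, adjusted p = 0.0386), with upper-quartile scaling (0.66, adjusted p = 0.0312), with both versions of the merged library kept (0.57, adjusted p = 0.0267) and without any 1 of 4 libraries, WT control replicate 1, WT NASH replicate 2 and KI NASH replicates 2 and 4 (0.53 to 0.73). By edgeR 2 of the 10 genes were called, against 21% of all genes called in this comparison and 11.3% called higher, so the share is near the background. Without the library labelled male WT control replicate 3, Pdgfrb was at 1.76 and Tgfb1 at 0.87 on the log2 scale, and both stayed past the threshold of 0.05.

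The vitamin A gene Lrat was at 25.8, 24.4 and 33.3 CPM in the control group and at 33.5, 34.1, 38.4 and 30.9 on the NASH diet, with overlap (log2 fold change 0.31 ± 0.23, adjusted p = 0.349). The cytoskeletal genes also overlapped between the diets: Des had a log2 fold change of 0.43 ± 0.21 (adjusted p = 0.16) and Acta2 one of 0.49 ± 0.37 (adjusted p = 0.35). Reln was at -0.11 ± 0.19 and Colec11 at 0.29 ± 0.26. Of the TGF-beta receptors, Tgfbr2 was at 12.5, 58.1 and 27.7 CPM on the control diet and 64.8, 47.4, 82.0 and 70.4 on the NASH diet, with overlap (1.02 ± 0.53, adjusted p = 0.181), and Tgfbr1 was at 0.20 ± 0.14 (adjusted p = 0.304). In male KI liver none of the 10 genes was called for diet by edgeR, none was at an unadjusted p under 0.05 and none was called by DESeq2, in a comparison with 0% of all genes called. The difference between the KI and the WT diet effects was called for none of the 10 either (1.13% of all genes), with 3 at an unadjusted p under 0.05 and none called by DESeq2. Those 3 were Tgfb1 (-0.56 ± 0.18, adjusted p = 0.128), Pdgfrb (-1.15 ± 0.51, adjusted p = 0.225) and Tgfbr2 (-1.67 ± 0.72, adjusted p = 0.216). The log2 changes in KI ran from -0.65 (Tgfbr2) to 0.57 (Acta2), and the differences of the other 7 genes from -0.45 (Rgs5) to 0.07 (Acta2). Without the library labelled male WT control replicate 3, the Tgfb1 difference was -0.70 with an adjusted p of 0.042.

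On the NASH diet, male KI liver held less Lrat, Des, Acta2, Pdgfrb and Tgfb1 mRNA than male WT liver, 5 of the 10 genes against 37% of all genes called. The share is near the background, and the 5 were all lower, while 17.4% of all genes were called lower. Lrat was at 19.4, 25.1, 16.6 and 19.2 CPM in KI and at 30.9 to 38.4 in WT, without overlap (log2 fold change -0.76 ± 0.21, adjusted p = 0.0124). In bulk liver, fewer stellate cells and less of this RNA per cell cannot be told apart. Des stood at 5.76, 4.76, 4.37 and 5.27 CPM against 14.5, 8.36, 9.77 and 7.47, also without overlap (-0.98 ± 0.20, adjusted p = 0.00203). Tgfb1 was at 11.7, 10.9, 12.4 and 13.1 CPM in KI, below the lowest WT library at 17.6 (-0.82 ± 0.12, adjusted p = 0.000309).

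Acta2 and Pdgfrb differed on average, with overlapping libraries. Acta2 was at 4.94, 3.00, 6.74 and 5.73 CPM in KI and at 18.3, 8.47, 5.57 and 8.77 in WT (log2 fold change -0.997 ± 0.34, adjusted p = 0.0313). WT NASH replicate 1 was the highest for both genes and for Des. Pdgfrb was at 24.9, 13.6, 15.4 and 12.5 CPM in KI (-1.10 ± 0.34, adjusted p = 0.0205). Without WT NASH replicate 1 the Acta2 change was -0.56 (adjusted p = 0.146) and the Pdgfrb change -0.67 (adjusted p = 0.0849). Acta2 was also lost without KI NASH replicate 1 (-0.98, adjusted p = 0.066) or 2 (-0.82, adjusted p = 0.0854), and Pdgfrb without KI NASH replicate 2 (-1.02, adjusted p = 0.0544) or 4 (-0.99, adjusted p = 0.0555). Lrat, Des and Tgfb1 stayed past the threshold in all 21 alternatives, and Tgfb1 ranged from -0.98 to -0.76.

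Among the other 5 genes, Tgfbr2, the receptor that binds the ligand first, was at 18.7, 40.7, 40.3 and 17.5 CPM in KI and at 64.8, 47.4, 82.0 and 70.4 in WT. These groups did not overlap, yet the adjusted p was 0.0726 (log2 fold change -1.16 ± 0.48). Its partner Tgfbr1 (0.18 ± 0.13), Reln (-0.06 ± 0.18) and Rgs5 (0.04 ± 0.17) lay near 0. Colec11 was at -0.53 ± 0.24 (adjusted p = 0.0937), with overlap. On the control diet edgeR called none of the 10 (4.67% of all genes called), with 4 at an unadjusted p under 0.05 and 2 called by DESeq2, Lrat and Acta2. DESeq2 called 1323 of all genes there and edgeR 606. In that comparison Lrat was at 14.8, 17.3, 9.41 and 22.9 CPM in KI and at 24.4 to 33.3 in WT, with no overlap (log2 fold change -0.79 ± 0.23, adjusted p = 0.0609). Acta2 (-1.07 ± 0.37, adjusted p = 0.102) and Des (-0.59 ± 0.22, adjusted p = 0.12) did not overlap either. None of these genes passed the edgeR test, and the share of all genes without overlap was not computed. The other 7 genes overlapped and ran from -0.27 (Tgfb1) to 0.51 (Tgfbr2). Des (-0.61) and Acta2 (-1.10) were called without WT NASH replicate 1, and Lrat (-1.005) without KI control replicate 4.

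**Figure D2:**
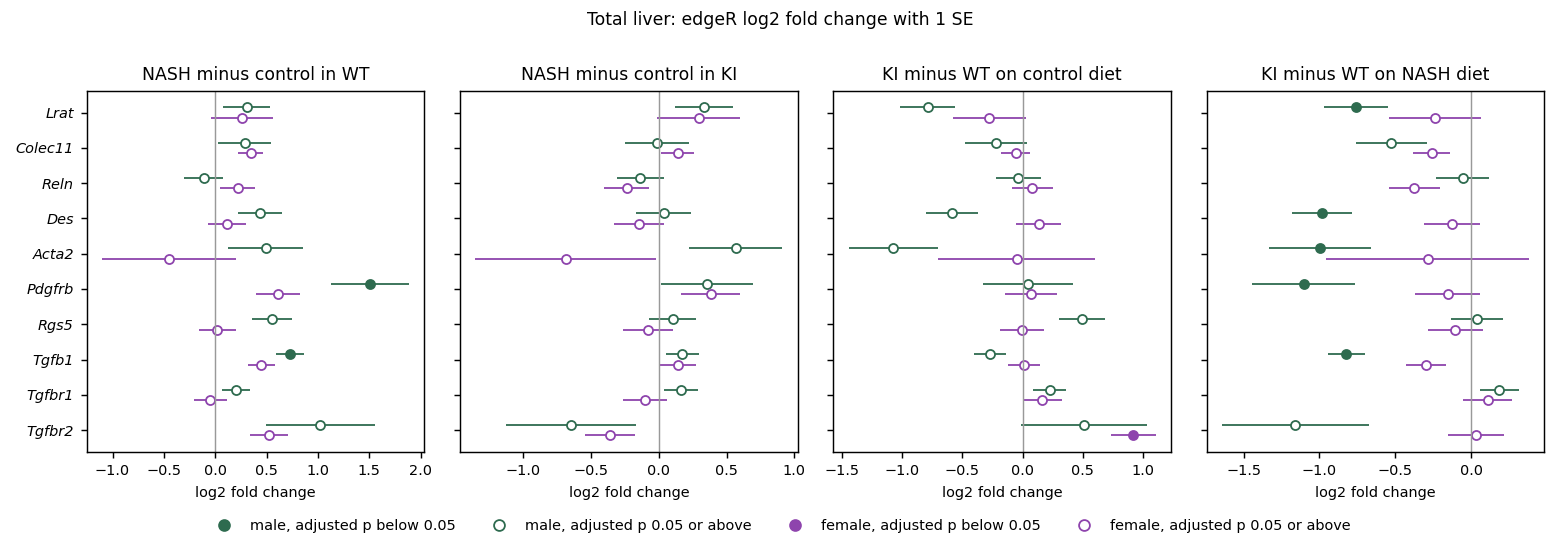
edgeR log2 fold changes (points) with 1 SE (bars) of the 10 genes in liver, by sex and comparison; the vertical line marks no change and filled points passed an adjusted p of 0.05. The filled points are mostly those of males, with Lrat, Des, Acta2, Pdgfrb and Tgfb1 lower in KI on the NASH diet.

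Of 20 tested myofibroblast genes, 18 were higher in WT on the NASH diet and none lower, with a median log2 change of 1.92 against -0.01 over all genes. Timp1, an inhibitor of matrix proteases, was at 5.03 ± 0.97, the collagen Col1a1 at 3.65 ± 0.59 and the collagen cross-linking enzyme Lox at 3.04 ± 0.60. Between KI and WT on the NASH diet 19 of the 20 were lower, with a median of -1.70 (Timp1 -3.04 ± 0.70, Lox -2.95 ± 0.51, Col1a1 -2.87 ± 0.50). Both comparisons use the WT NASH libraries. Of 25 further stellate cell genes, 4 were higher on the NASH diet in WT (Adamtsl2 1.77, Cygb 1.17, Nes 1.09 and Dcn 0.70), and 9 were lower and 1 higher in KI against WT (Nes -1.51, Tcf21 -1.51, Cygb -1.27, Adamtsl2 -1.18), with list medians of 0.19 and -0.51. Most of the stellate identity genes did not pass the test in either comparison.

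Of 33 tested TGF-beta pathway genes, 8 were higher and 2 lower in male WT on the NASH diet (median 0.39), led by the latency binding proteins Ltbp2 (2.52) and Ltbp3 (2.00), the ligand Tgfb2 (1.91) and the feedback gene Pmepa1 (1.77). In KI against WT 15 were lower and 4 higher (median -0.56), with Ltbp2 at -2.42, Tgfb2 at -2.23 and Ltbp3 at -1.69. All 5 tested genes of the platelet-derived growth factor list, the ligands Pdgfa, Pdgfb, Pdgfc and Pdgfd and the receptor Pdgfra, were lower in KI (Pdgfb -2.31 ± 0.53), and 2 were higher with the diet in WT (Pdgfb 2.37 and Pdgfra 1.10). Of 23 retinoid genes, 6 were lower and 1 higher in KI against WT (median -0.16), among them the retinoic acid receptor Rarb (-1.02). Of 7 lectin pathway genes 4 were higher in KI (Masp1, 1.45 ± 0.19), with a median of 0.40, and Colec11 was not among the genes called. The reelin receptor gene Vldlr was at -3.61 ± 0.73, with Dab1 (1.32) and Crkl (0.43) higher, of 5 reelin pathway genes tested (median 0.15).

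Markers of other liver cells moved in the same comparisons, among them those of macrophages, where Tgfb1 is high. For the diet in WT 4 of 13 Kupffer cell genes were higher (median 0.54), and 7 of 10 genes of monocytes and lipid-associated macrophages were higher and 1 lower (median 2.73). In KI against WT on the NASH diet 4 of the 13 were lower (median -0.21) and 7 of the 10 lower (median -2.39). Summed levels of the Kupffer cell genes were 581 to 994 CPM in WT control, 838 to 1147 in WT NASH and 555 to 1041.5 in KI NASH. Those of the monocyte list were 299 to 501, 142 to 323 and 72.7 to 165 CPM. In WT this sum did not rise with the diet, though 7 of the 10 genes were called higher. The lowest gene of the list in male WT control macrophages was at 0.648% of its liver level, so the sum is not a measure of these cells alone. Lyz2, the gene with the Cre insertion, was at 38.9 to 76.2 CPM in WT control and 128 to 248 in WT NASH. In KI it was at 0.505 to 27.7 CPM on the control diet and 1.10 to 54.4 on the NASH diet. It was thus lower in male KI liver on both diets. In female liver Lyz2 was higher in KI control (22.2 to 44.7 CPM) than in WT control (1.09 to 2.49). On the NASH diet it was at 1.18 to 63.4 CPM in female KI liver and 1.31 to 2.19 in female WT liver. Lyz2 thus differed among groups labelled WT, and the Cre genotype of the libraries was not tested. In KI against WT on the NASH diet 7 of 10 portal fibroblast genes were lower (median -1.71), 7 of 12 hepatocyte genes higher (median 0.60), 5 of 7 cholangiocyte genes lower (median -2.31) and 1 of 12 sinusoidal endothelial genes lower (median -0.07). Of 7 smooth muscle genes 1 was lower, Tagln (-0.96 ± 0.28), and of 4 pericyte genes 2 were lower, Mcam (-1.15) and Kcnj8 (-0.95). Their part in the results for the 10 genes was not tested.

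In female liver Tgfbr2 was the 1 gene of the 10 called, in KI against WT on the control diet (7.57% of all genes called, 4.04% higher). Its levels were 44.6, 41.4, 72.4 and 54.9 CPM in KI and 21.3, 33.3, 25.4 and 33.6 in WT, without overlap (log2 fold change 0.92 ± 0.19, adjusted p = 0.0123). The call held in all 20 alternatives, at 0.73 to 1.02. The other 9 genes overlapped between the groups and ran from -0.28 (Lrat) to 0.16 (Tgfbr1). Among TGF-beta pathway genes in the same comparison, the repressor Skil was higher (1.46 ± 0.27) and Smad3 (-0.97) and Acvrl1 (-0.69) were lower, 3 of 33 with a list median of 0.09. Without WT control replicate 2, whose Acta2 stood at 12.2 CPM against 0.996 to 1.82 in the other libraries of the group, Acta2 was also called there (1.56, adjusted p = 0.0484).

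The remaining female liver comparisons had no call among the 10 by edgeR. The percents given with them are edgeR's adjusted calls, not the share of genes at an unadjusted p. For the diet in WT (0.0526% of all genes called) 4 were at an unadjusted p under 0.05 with none called by DESeq2, and for the diet in KI (8.83%) none had such a p and DESeq2 called none. For KI against WT on the NASH diet (0.0901%) 3 had an unadjusted p under 0.05, with none called by DESeq2. For the interaction (4.77%) 1 did, Tgfbr2 (-0.89 ± 0.26, adjusted p = 0.062), which DESeq2 called among 1253 genes. The log2 changes of the 10 ran from -0.45 (Acta2) to 0.61 (Pdgfrb) for the diet in WT, from -0.69 (Acta2) to 0.38 (Pdgfrb) for the diet in KI and from -0.37 (Reln) to 0.11 (Tgfbr1) for KI against WT on the NASH diet. The interactions of the 9 genes besides Tgfbr2 ran from -0.46 (Reln) to 0.03 (Lrat). The 2 genes called for diet in male WT pointed the same way in females: Tgfb1 was at 18.2, 19.3, 14.7 and 14.0 CPM on the control diet and 18.4, 21.1, 26.1 and 25.6 on the NASH diet (log2 fold change 0.45 ± 0.13, adjusted p = 0.15), and Pdgfrb had a change of 0.61 ± 0.22 (adjusted p = 0.223). The female minus male difference of the WT diet effect was called for none of the 10 (1.68% of all genes), with none at an unadjusted p under 0.05 and none called by DESeq2; it ran from -0.89 (Acta2) to 0.37 (Reln), and for Pdgfrb it was -0.85 ± 0.43 (adjusted p = 0.296).

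The KI effect on the NASH diet differed between the sexes for Des and Tgfb1, 2 of the 10, with 14% of all genes called and 5.26% called higher. In females Des was at 4.65, 5.22, 6.08 and 7.43 CPM in KI and 6.103, 7.50, 6.28 and 5.77 in WT (log2 fold change -0.12 ± 0.18), and the female minus male difference was 0.84 ± 0.27 (adjusted p = 0.0346). For Tgfb1 the female change was -0.30 ± 0.13 and the difference 0.51 ± 0.17 (adjusted p = 0.0496). The other 8 genes ran from -0.33 (Reln) to 1.17 (Tgfbr2). The Des call was lost in 8 of 37 alternatives and the Tgfb1 call in 23 of 37. Male and female livers are in separate tables, so sex and table cannot be told apart in this contrast. Rgs5 averaged 74.3 CPM in female and 13.7 CPM in male liver, a ratio of 5.43. In the macrophage table, which holds both sexes, the ratio was 0.682 (23.1 and 33.8 CPM). Male liver WT control, which holds the library whose sex genes go against its label, had Rgs5 at 8.12 to 12.5 CPM. No library of the female liver table was below 53.1 CPM. Whether the level goes with sex or with table was not tested. Among 9353 genes with a summed mean of at least 10 CPM, 62 were at least 4-fold higher in the female liver table and 96 at least 4-fold lower.

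Lrat, Colec11, Reln, Des, Acta2 and Pdgfrb were at a lower level in the sorted macrophages than in liver, and the TGF-beta genes at a higher one. Averaged over the 4 groups of each sex, all 10 genes differed between the tissues, as did 90.1% of all genes in males (45.4% lower and 44.7% higher) and 91.7% in females (46.7% and 44.9%). In males the log2 difference of macrophage minus liver was -1.49 ± 0.22 for Lrat, -2.09 ± 0.22 for Colec11, -3.21 ± 0.23 for Reln, -1.47 ± 0.20 for Des, -3.44 ± 0.24 for Acta2 and -3.08 ± 0.20 for Pdgfrb. In females it was -2.85 ± 0.15 for Lrat, -2.80 ± 0.12 for Colec11, -3.34 ± 0.27 for Reln, -2.0 ± 0.14 for Des, -3.23 ± 0.31 for Acta2 and -2.28 ± 0.23 for Pdgfrb. The largest adjusted p among them was 3.31e-07 (edgeR). Liver and macrophage RNA were extracted with different kits and counted in different tables, so tissue, kit and table cannot be told apart.

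As a percent of the liver mean of the same sex, genotype and diet, Lrat in macrophages ranged from 19.7 to 50.5% in males and from 5.67 to 28.8% in females. Des ranged from 19.3 to 54.5% in males and from 11.8 to 40.6% in females. Colec11 ranged from 14.3 to 35.9% and from 6.25 to 31.3%, and Reln from 6.58 to 23.1% and from 5.10 to 21.1%. Acta2 spanned 5.53 to 25.8% and 5.22 to 17.6%, and Pdgfrb 4.87 to 21.0% and 9.88 to 41.4%. These percents, and the overlaps here, rest on 1 scaling over both tissues of a sex, not on the scaling within tables used for the levels. On it the libraries of the tissues overlapped, among these 6 genes, for Lrat in male WT control and male KI control and for Des in male KI control. On the scaling within tables they overlapped as well for Lrat, Colec11 and Des in male KI NASH, Lrat in female WT control and Pdgfrb in female KI NASH. Computed on total counts, the percents are 1.29 to 1.54 times as high.

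Marker lists of other cells give the scale for these percents. The median of the 25 further stellate genes ranged from 6.30 to 32.2% of liver over the 8 groups. Lists of related cells covered a like range, so it was not particular to the stellate genes. Their medians were 5.73 to 53.3% for portal fibroblast, 9.22 to 63.0% for myofibroblast, 8.51 to 32.0% for smooth muscle and 4.95 to 82.1% for pericyte genes. Hepatocyte markers had medians of 0.0242 to 0.840% and cholangiocyte markers 0.456 to 14.2%, with none of the 8 cholangiocyte genes passing the count filter in macrophages. Sinusoidal endothelial markers had medians of 39.9 to 463%, and Kupffer cell and macrophage markers 2496 to 6387%. The median of the further stellate genes was thus, relative to liver, above the hepatocyte median and below the endothelial one in each group. Not every single gene followed: in female WT control Pdgfrb (41.4%) and Des (40.6%) lay above the endothelial median of 39.9%. In male WT control Rgs5 was at 221% against an endothelial median of 65.9%.

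**Figure D3:**
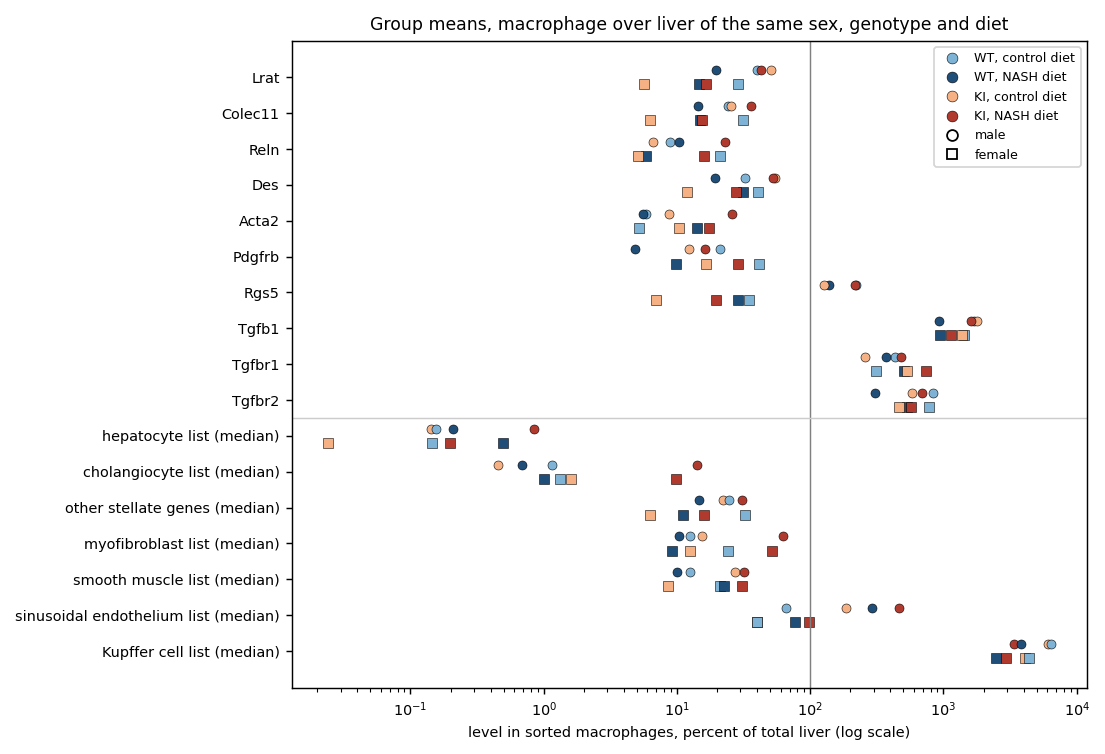
Mean level in sorted macrophages as a percent of the mean in liver of the same sex, genotype and diet (log axis; 1 point per group, circles male and squares female), for the 10 genes and the medians of marker lists. Lrat, Colec11, Reln, Des, Acta2 and Pdgfrb lie between 4.87 and 54.5%, Tgfb1 lies at 929% or more, and Rgs5 separates by sex.

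Rgs5 did not share one pattern in the sexes. In males it was at 128 to 221% of liver, with overlap in all 4 groups on the scaling over both tissues but not in WT control or KI NASH on the scaling within tables (log2 difference 0.76 ± 0.21, adjusted p = 0.00167), and in females at 6.91 to 35.0% without overlap (-2.40 ± 0.16, adjusted p = 1.41e-15), the liver level being the one that differed between the tables. Tgfb1 was at 929 to 1786% of liver in males and 938 to 1424% in females, without overlap in any group (log2 difference 3.85 ± 0.07 and 3.57 ± 0.06). Tgfbr1 ranged from 258 to 482% and from 314 to 740%, and Tgfbr2 from 304 to 842% and from 468 to 775%. Per kilobase, Tgfb1 had group means of 55.3 to 63.4 CPM per kb in macrophages, the highest of the 10 there in each group, though Tgfbr1 came to 56.5 against 57.1 CPM per kb in female KI on the NASH diet.

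In female macrophages on the control diet Lrat, Colec11, Des and Rgs5 were lower in KI than in WT, and none of these calls remained without the low-Lyz2 libraries, which left 1 library against 1. Lrat was at 2.62, 2.08, 1.70 and 2.94 CPM in KI and at 14.4, 5.58, 19.4 and 19.1 in WT (log2 fold change -2.63 ± 0.31, adjusted p = 0.000208). Colec11 was at 3.60, 3.84, 3.05 and 3.65 against 15.5, 13.1, 24.5 and 21.5 (-2.39 ± 0.31, adjusted p = 0.000339), and Rgs5 at 7.0, 7.95, 4.75 and 7.98 against 33.6, 30.1, 40.2 and 38.9 (-2.36 ± 0.40, adjusted p = 0.00324). None of these 3 genes overlapped between the groups, nor did Des (0.978, 1.47, 0.929 and 0.714 against 2.53, 3.58, 3.61 and 3.20 CPM, -1.65 ± 0.36, adjusted p = 0.0142). Tgfbr1 was higher in KI (308, 404, 203 and 196 against 173, 145, 151 and 127 CPM, 0.90 ± 0.25, adjusted p = 0.0475). The Tgfbr1 call was lost in 17 of 25 alternatives, among them leaving out any 1 of the WT control libraries. In all, 4 of the 10 were lower and 1 higher, against 4.64% of all genes called, 1.91% called lower and 2.73% called higher. With upper-quartile scaling 4 were lower and none higher.

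Reln (-1.98 ± 0.70, adjusted p = 0.104) and Pdgfrb (-1.27 ± 0.61, adjusted p = 0.235) did not overlap between these groups but missed the threshold. Acta2 was below 1 CPM in all 8 libraries, at 0.413 to 0.805 in KI and 0.117 to 0.402 in WT (0.94 ± 0.58, adjusted p = 0.376), with counts as low as 3. Tgfb1 (-0.04 ± 0.11) and Tgfbr2 (0.17 ± 0.14) overlapped. Of 24 further stellate genes tested 21 were lower and none higher in KI (median -2.03 against 0.00 over all genes), among them Rgs4 (-2.93), the nerve growth factor receptor Ngfr (-2.72), Pth1r (-2.63) and Bmp10 (-2.47). Colec10, which encodes the partner lectin of collectin-11, was at -2.65 ± 0.41.

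Other measures moved with this contrast. The 12 hepatocyte genes had a median of -2.26, with 1 called lower, Alb (-2.32 ± 0.65), and the summed level of 13 hepatocyte genes was 620 to 1257 CPM in KI and 1498 to 1735 in WT. Sinusoidal endothelial genes had none called of 12 (median -0.23) and sums of 1687 to 1956 CPM in KI and 2003 to 2482 in WT. Of 8 cholangiocyte genes 1 was at 0 in every KI library and 4 in every WT library. Each group had 3 low-Lyz2 libraries and 1 high: among the low, Lrat was at 2.62, 2.08 and 1.70 CPM in KI and 14.4, 19.4 and 19.1 in WT, and the high ones were at 2.94 and 5.58. Without the low-Lyz2 libraries, 1 library stood against 1 and none of the 10 was called (Lrat -0.92, Colec11 -1.83, Des -2.31, Rgs5 -1.91, adjusted p = 0.571 to 0.772). The part of these measures in the result was not tested.

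**Figure D4:**
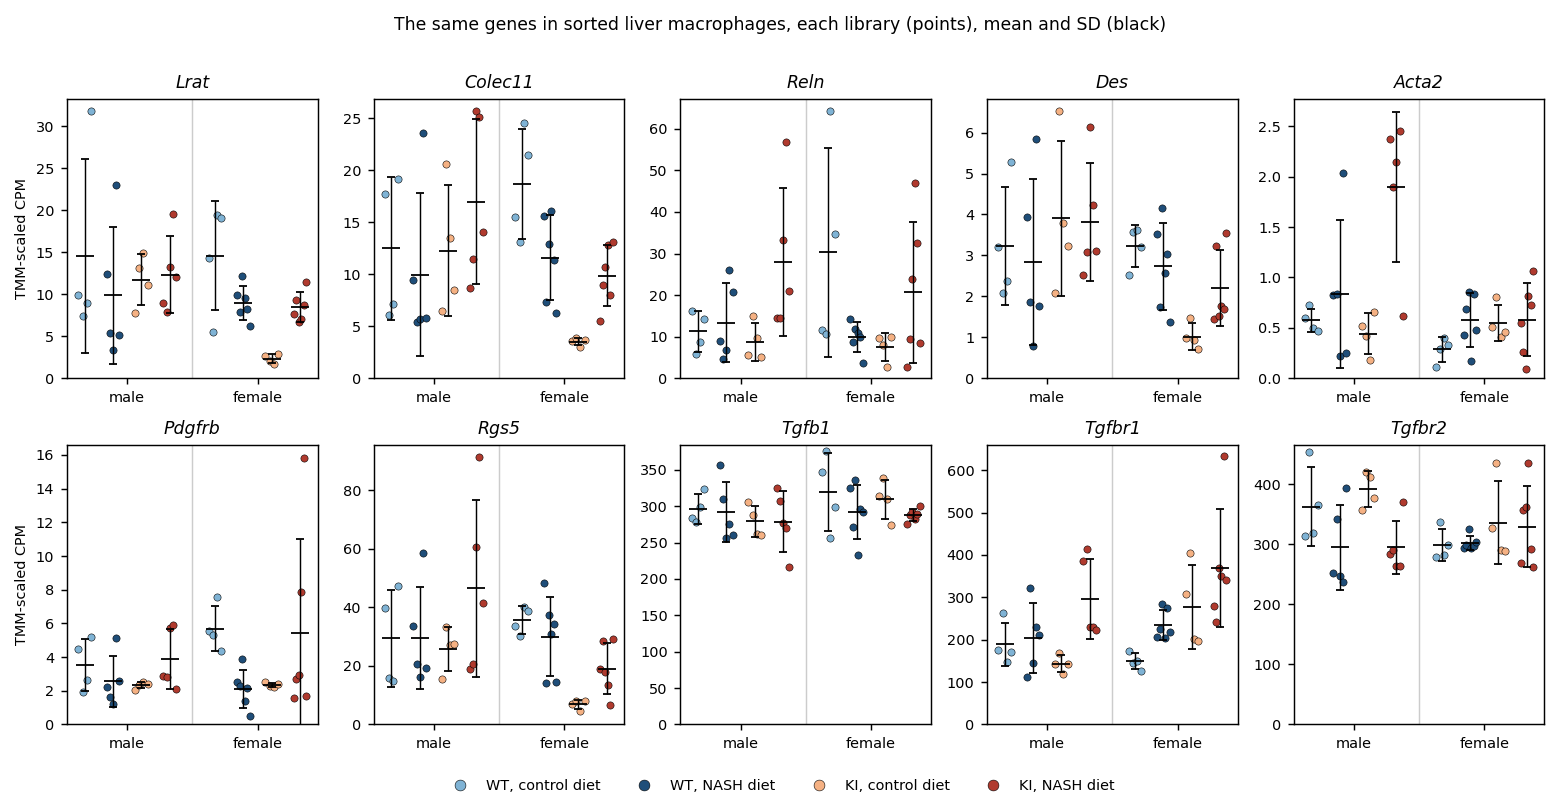
TMM-scaled CPM of the 10 genes in sorted macrophages, drawn as for liver (linear axes from 0; points are libraries, black bars the mean and SD, cut at 0). The female KI control libraries lie below all female WT control libraries for Lrat, Colec11, Des and Rgs5.

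In female KI macrophages the NASH diet was accompanied by higher Lrat, Colec11 and Rgs5, 3 of the 10 against 2.31% of all genes called and 1.79% called higher. Lrat had a lowest, median and highest value of 6.73, 8.25 and 11.5 CPM on the NASH diet, above every control library (log2 fold change 1.86 ± 0.29, adjusted p = 0.0126). Colec11 ranged from 5.52 to 13.1 CPM, also above all 4 control libraries (1.48 ± 0.29, adjusted p = 0.0226). Rgs5 ranged from 6.60 to 29.1 CPM and overlapped (1.46 ± 0.37, adjusted p = 0.0474). The other 7 genes overlapped and ran from -0.10 (Tgfb1) to 1.45 (Reln). Rgs5 lost the call in 16 of 25 alternatives, 1 gene was called without KI control replicate 1, and none without KI control replicate 3, the library with the lowest Lrat, Colec11 and Rgs5 of its group. With the low-Lyz2 libraries left out, 1 control library remained, too few to decide whether the calls rest on them. The log2 fold changes were then 1.66 for Lrat, 1.28 for Colec11 and 1.38 for Rgs5. Beside them, 7 of 24 stellate genes were higher (median 1.36) and 6 of 12 hepatocyte genes were higher (median 2.56), and the part of the latter was not tested.

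In female WT macrophages the same diet comparison called none of the 10 by edgeR, with 12.9% of all genes called. Of the 10, 5 were at an unadjusted p under 0.05 and 1 was called by DESeq2, Tgfbr1, among 2183 genes. Lrat had a lowest, median and highest value of 6.23, 8.91 and 12.2 CPM on the NASH diet, and it overlapped the control group (log2 fold change -0.70 ± 0.26, adjusted p = 0.0791). It was called without WT control replicate 2 (-0.97, adjusted p = 0.0121), and Pdgfrb (-1.41) and Tgfbr1 (0.67) were called without KI NASH replicate 5. The 9 genes besides Lrat ran from -1.61 (Reln) to 1.01 (Acta2). The diet effects in KI and WT differed for Lrat (2.56 ± 0.39, adjusted p = 0.00802) and Colec11 (2.16 ± 0.38, adjusted p = 0.0239), 2 of the 10 against 0.288% of all genes (0.195% higher). Without the low-Lyz2 libraries these differences were 0.97 and 1.46. That fit had 1 library in each control group, too few to decide whether the calls rest on them. The other 8 differences ran from -0.92 (Acta2) to 3.05 (Reln). On the NASH diet KI and WT did not differ by the edgeR test for any of the 10 (0.561% of all genes called). Of the 10, 2 were at an unadjusted p under 0.05 and 1 was called by DESeq2, Tgfbr1, among 532 genes. The 10 ran from -0.65 (Rgs5) to 1.36 (Pdgfrb). The Lrat difference there was -0.08 ± 0.24 (adjusted p = 0.901).

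In male KI macrophages Reln, Acta2 and Tgfbr1 were higher on the NASH diet. These are 3 of the 10 against 24% of all genes called and 15.1% called higher, so the share is near the background. DESeq2 called 3 higher and 1 lower, Tgfbr2, among 3715 genes. Tgfbr1 was at 142, 169, 120 and 144 CPM on the control diet and at 385, 414, 231, 230 and 222 on the NASH diet, without overlap (log2 fold change 1.07 ± 0.28, adjusted p = 0.0116). Acta2 went from 0.518, 0.416, 0.185 and 0.660 CPM to 2.37, 1.90, 2.15, 2.45 and 0.620, with 1 NASH library among the controls (2.13 ± 0.59, adjusted p = 0.0155). Reln was at 5.58, 14.97, 9.70 and 5.10 CPM against 14.4, 14.6, 33.2, 56.9 and 20.9, with overlap (1.71 ± 0.56, adjusted p = 0.0353). The Reln call was lost without any 1 of 5 libraries (KI control 1, 3 and 4, KI NASH 3 and 4; 1.24 to 1.73), and the Acta2 call without KI control 3 (1.84, adjusted p = 0.0556). Lrat (0.11 ± 0.52), Colec11 (0.50 ± 0.52) and Des (-0.00 ± 0.48) were not called. The remaining 4 genes ran from -0.39 (Tgfbr2) to 0.89 (Rgs5).

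The lists that moved in this comparison included those of other cells. Of 20 myofibroblast genes 14 were higher and 1 lower (median 2.58, Col1a1 5.81 ± 1.06), and of 30 TGF-beta pathway genes 11 were higher and 1 lower (median 0.60), among them the activin subunit Inhba (4.99), the TGF-beta activator Thbs1 (4.04) and Ltbp3 (3.99). Of 12 hepatocyte genes 11 were higher (median 2.58), with summed levels of 1758 to 2145 CPM on the control diet and 1795 to 4711 on the NASH diet, and 10 of 13 Kupffer cell genes were lower (median -0.82). Sinusoidal endothelial genes had 1 of 12 higher (median 1.06), and cholangiocyte sums were 0.403 to 0.554 CPM against 0.921 to 7.13. Of 24 stellate genes 4 were higher (median 0.60). Without the low-Lyz2 libraries none of the 10 was called (Tgfbr1 0.98, adjusted p = 0.052, Acta2 1.84, adjusted p = 0.0663, and Reln 1.73, adjusted p = 0.0838). The part of the other cell types was not tested.

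The other male macrophage comparisons called none of the 10 by edgeR. For the diet in WT, with 8.19% of all genes called, 1 was at an unadjusted p under 0.05 with none called by DESeq2. For KI against WT on the control diet, with 0%, none had such a p and DESeq2 called none. On the NASH diet, with 3.13%, 3 did and DESeq2 called none: Acta2 at 1.20 ± 0.51 (adjusted p = 0.246), Reln at 1.09 ± 0.51 and Tgfbr1 at 0.56 ± 0.26. Without WT NASH replicate 4, Acta2 was called (1.85, adjusted p = 0.0276). The interaction, with 0% of all genes called, had 2 at such a p, Tgfbr1 (0.99 ± 0.39, adjusted p = 0.31) and Pdgfrb (1.26 ± 0.59), and DESeq2 called none. The female minus male differences in macrophages were called for none of the 10, for the diet in WT (0.0224% of all genes, 1 at an unadjusted p under 0.05, none by DESeq2) or for KI against WT on the NASH diet (4.37%, 1, none). The log2 changes ran from -0.58 (Lrat) to 0.51 (Acta2) for the diet in WT and from -0.64 (Pdgfrb) to 0.25 (Des) for KI against WT on the control diet. The 7 genes not yet given ran from -0.03 (Tgfb1) to 0.80 (Colec11) on the NASH diet, and 8 from -0.06 (Tgfbr2) to 1.61 (Acta2) for the interaction. The sex differences ran from -1.87 (Reln) to 0.57 (Tgfbr1) for the diet and from -1.33 (Rgs5) to 0.75 (Pdgfrb) for KI against WT. Macrophage Tgfb1 had group means from 279 to 319 CPM, and its log2 changes between groups of 1 sex ran from -0.12 to 0.02, none called.

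Several of the stellate genes varied together across macrophage libraries. With each library's log2 CPM taken as its deviation from its group mean, Lrat followed Colec11 over the 38 macrophage libraries (Pearson r = 0.75, Spearman rho = 0.75, permutation p = 1e-05 within groups, the smallest that the 100000 permutations can give, adjusted 0.00018 over 18 relations). It also followed Des (r = 0.71, rho = 0.69, adjusted p = 0.00018) and Rgs5 (r = 0.70, rho = 0.74, adjusted p = 0.00018), by the same permutation test. Without the 2 libraries farthest out in Lrat these were 0.66, 0.62 and 0.64, and among 26 high-Lyz2 libraries of 6 groups 0.81, 0.86 and 0.73. Reln (r = 0.48, rho = 0.50, adjusted permutation p = 0.0105) and Pdgfrb (r = 0.42, rho = 0.45, adjusted permutation p = 0.0105) were weaker. Tgfb1 (r = -0.06), Tgfbr1 (r = -0.16) and Tgfbr2 (r = -0.30) had adjusted permutation p-values over the threshold (adjusted 0.837, 0.589 and 0.272). Over the 31 liver libraries Reln was the closest to Lrat (r = 0.54, rho = 0.46, adjusted permutation p = 0.0105), and Des (0.39), Pdgfrb (0.34) and Colec11 (0.26) had adjusted p of 0.0609, 0.0609 and 0.101 for Pearson's r. Of these 3, Des passed for Spearman's rho (0.46, adjusted permutation p = 0.0286). The libraries share their tables and a scaling, and the difference between the tissues was not tested.

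**Figure D5:**
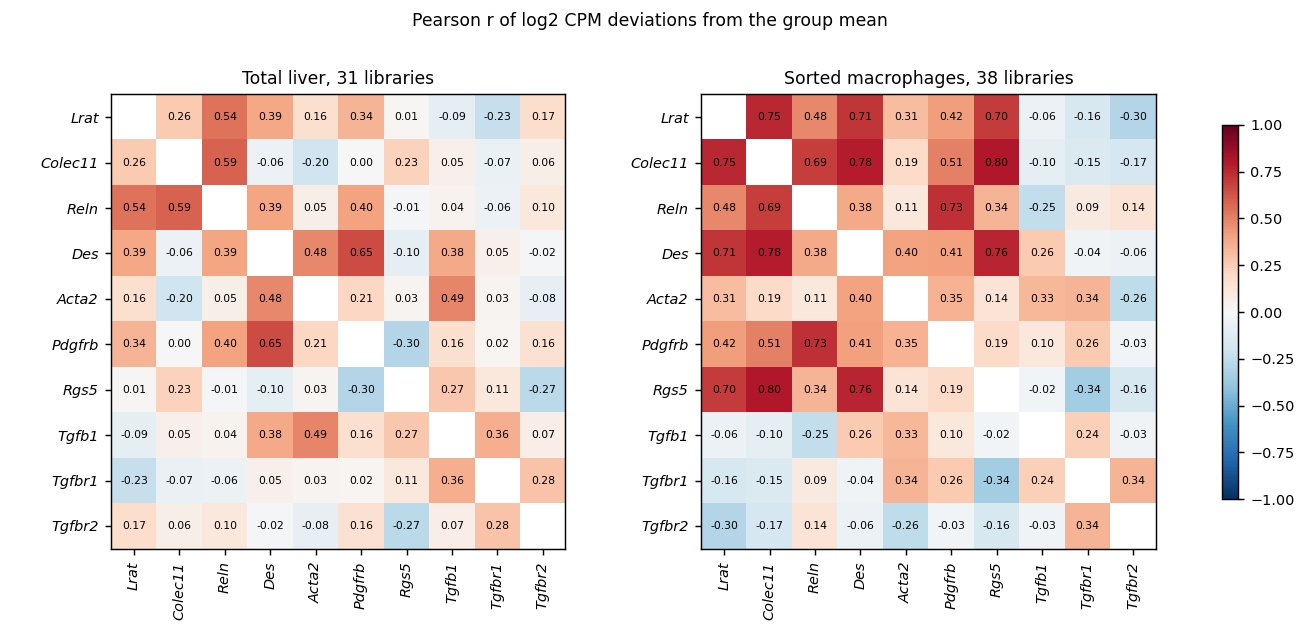
Pearson r between each pair of the 10 genes, from log2 CPM minus the group mean, in 31 liver libraries (left) and 38 macrophage libraries (right); rows and columns are genes, and color runs from blue (negative) to red (positive). In macrophages Lrat stands at 0.75, 0.71 and 0.70 with Colec11, Des and Rgs5.

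The genes most like each marker, by the correlation of the same deviations over all tested genes, are given as a description. For Lrat in liver (31 libraries) they were Cyp26b1 (r = 0.84), which degrades retinoic acid, Fut8 (0.69), the retinoic acid receptor Rarb (0.68), Dennd2a (0.67) and Wnt4 (0.63). For Colec11 they were Ecm1 (0.90), Angptl6 (0.77), Colec10 (0.74), Acss3 (0.73) and Cadm3 (0.73), and for Reln Abcc9 (0.81), Abi3bp (0.74), Angptl2 (0.74), Papln (0.73) and Bmp5 (0.71). The other genes and the macrophages were added afterwards. In liver Acta2 was closest to Myl9 (0.92), Myh11 (0.84) and Mmrn1 (0.84), the former pair encoding smooth muscle myosin chains, Pdgfrb to the collagens Col5a1 (0.95) and Col6a3 (0.91), and Des to Timp2 (0.82) and Adamtsl2 (0.82). In macrophages (38 libraries) Lrat was closest to Wnt4 (0.86), Colec11 to Cxcl12 (0.91), Reln to Lamb1 (0.97), Des to Ddr2 (0.85) and Rgs5 to Colec10 (0.89). The correlation of Acta2 with Lrat in liver was 0.16.

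Overlapping genes limit 2 of the levels, since the strand setting of the counting is not given in the sources used here. The antisense gene Rbm46os spans all 11395 bases of Lrat (chr3:82892579-82903973, GRCm38, minus strand), and Gm15179 shares 368 bases with Des (chr1:75360329-75368579, plus strand). Both are listed in all 3 tables, and reads of such partners cannot be told apart if strand was not used.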

How the data were processed

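RNA-seq counts per gene were deposited in 3 tables, 1 each for male liver, female liver and macrophages of both sexes. Per the labels' protocols, the authors prepared libraries with a stranded mRNA kit after different RNA extraction kits for liver and macrophages, and the deposited values are whole-number read counts without normalization. The build was mm10, per the submitters' processing notes. For aligner, counter, annotation and strand nothing is given in the sources used here. Libraries held 11245097 to 29966174 counts. Genes with low counts were removed (filterByExpr, min.count 10, min.total.count 15), library sizes were scaled by TMM, and 1 mean per group was fitted for each table and sex with edgeR 4.0.16 in R 4.3.3 (quasi-likelihood test, two-sided). P-values were adjusted by Benjamini-Hochberg over all genes tested, with a threshold of 0.05. Percents of all genes called are those of edgeR at that threshold. DESeq2 called more genes than edgeR in each comparison. The share of all genes at an unadjusted p under 0.05 was not computed. In all, 26 comparisons gave 260 tests of the 10 genes. Contrasts between the sexes or tissues used 1 fit over both. Correlations used log2 CPM with a prior count of 2 and 100000 permutations within groups (two-sided). The fit was tested on simulated data. Alternatives were DESeq2 1.42.0, upper-quartile scaling, no filter, a replicate block, both versions of the library counted as 1 sample, leaving out the libraries whose sex genes go against the label, leaving out each library, and, chosen after seeing the data, leaving out macrophage libraries with Lyz2 under 500 CPM. The 10 genes and the gene lists were chosen with earlier results of these data known. All 10 genes are given in every comparison, singly or within a range. Other genes are up to 4 per list by size of change among those called. The 5 genes most like Lrat, Colec11 and Reln are named by correlation. Results for some listed genes are not reported here.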

Additional observations from a re-analysis of the deposited data

Results flagged for a closer look

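Of 150 groups of 4 to 10 libraries tested for a library far from the rest, 7 had one, and chance flags about 1 in 20 groups. In female liver WT control, replicate 2 had Acta2 at 12.2 CPM with the others at 0.996 to 1.82, and replicate 3 had Rgs5 at 101 CPM with the others at 64.4 to 69.5. In male macrophages, Lrat was at 31.8 CPM in WT control replicate 4 (others 7.47 to 9.94), the library whose sex genes go against its label. Colec11 was at 23.6 CPM in WT NASH replicate 4 (others 5.40 to 9.40), and Tgfbr2 at 371 CPM in KI NASH replicate 5 (others 263 to 291). In female macrophages, Tgfbr1 was at 634 CPM in KI NASH replicate 5 (others 242 to 369), and Tgfbr2 at 325 CPM in WT NASH replicate 3 (others 294 to 304).

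Differences between groups in the size of an effect passed the edgeR test for 4 results. The diet effect in female macrophages was higher in KI than in WT by 2.56 for Lrat and 2.16 for Colec11 on the log2 scale. The KI effect on the NASH diet in liver was higher in females than in males by 0.84 for Des and 0.51 for Tgfb1.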

How the results depend on the processing

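Over the 43 calls of the 10 genes, 1272 of 1373 alternative values stayed past the threshold, 101 lost it and none changed direction. The contrasts of macrophage and liver, with 10 calls in each sex, lost none over 40 alternatives per call in males and 41 in females. All 101 losses thus fell on the calls for diet, genotype, interaction or sex difference, which were less firm than the pooled share. The number of the 10 genes called moved by more than 1.5 times as follows, and the cause was not tested. With DESeq2 it was 2 for male liver KI against WT on the control diet (Lrat, Acta2), and 1 each for the female liver interaction (Tgfbr2), the female macrophage diet effect in WT (Tgfbr1) and female macrophage KI against WT on the NASH diet (Tgfbr1). With both versions of the library counted as 1 sample it was 2 for male liver KI against WT on the control diet (Lrat, Des), and without the library whose sex genes go against its label it was 1 for the male liver interaction (Tgfb1). Without a filter it was 1 for the liver sex difference of the KI effect. Without low-Lyz2 libraries it was 0 for the male macrophage diet effect in KI. In female macrophages that setting left 1 library in each control group. It was thus too small to judge the calls for the diet effect in KI, KI against WT on the control diet and the interaction. With the replicate number as a block it was 1 for the male macrophage diet effect in WT (Tgfbr2), 0 for the female macrophage diet effect in KI, 1 for the female macrophage interaction and 0 for the liver sex difference of the KI effect. Same-numbered deviations had median correlations of 0.04, 0.00, 0.06 and -0.04 in male liver, female liver, male and female macrophages. The highest were 0.23, 0.14, 0.56 and 0.53. In these sets 7 of 15, 3 of 16, 6 of 18 and 4 of 20 libraries correlated best with their own number. The medians lie near 0, but the check cannot exclude that some libraries are paired. Leaving out each library gave, in male liver, 1 to 3 calls for the diet in WT, 0 to 2 for KI against WT on the control diet, 3 to 6 on the NASH diet and 0 to 1 for the interaction. In female liver it gave 1 to 2 for KI against WT on the control diet and 0 to 1 for the interaction. In male macrophages it gave 1 to 4 for the diet in KI and 0 to 1 for KI against WT on the NASH diet. In female macrophages it gave 0 to 2 and 0 to 3 for the diet in WT and KI, 4 to 5 and 0 to 1 for KI against WT on the control and NASH diets, and 1 to 2 for the interaction. The sex difference of the KI effect gave 0 to 2 in liver and 0 to 1 in macrophages. Upper-quartile scaling moved the median of all genes by 0.11 for the male liver diet effect in WT and by -0.15 for KI against WT on the NASH diet, where 7 genes were then lower (Colec11 and Tgfbr2 added). On total counts, 2 of 160 group means moved by 1 SD or more. Acta2 in macrophages rested on as few as 2 counts, which limits its precision.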
